A study of Mus musculus with 2 samples.

Results

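The genes described here encode the proteins of the cytosolic ribosome, together with the paralogs that share their symbols, in mouse heart. Members were the genes with a symbol that begins with Rpl or Rps and a digit, plus Rplp0, Rplp1, Rplp2 and Rpsa, that have at least 1 protein-coding transcript; S6 kinase genes and symbols that end in -ps and a number were left out. Of 382 symbols that matched the pattern, 284 ended in -ps and a number and 12 had no protein-coding transcript, which left 86 members of 55536 genes. Among the 86, 77 were core members, meaning the usual copy of each ribosomal protein (46 of the large and 31 of the small subunit), and 9 were not: Rpl3l, Rpl7l1, Rpl10l, Rpl22l1, Rpl36al, Rpl39l, Rps27l, Rps27rt and Rps19bp1. At least 10 expected counts were present in each library for 84 members, and Rpl39l and Rpl10l fell below that.

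A ribosome holds its proteins in fixed proportions, so they are needed in matched amounts although every one comes from a gene of its own. Their mRNAs are among the most abundant of the cell, are mostly short, and many begin with a run of pyrimidines through which their translation is adjusted to nutrient and growth signals. Mammalian genomes carry many processed pseudogenes of these genes, which are reverse-transcribed copies of the mRNA and resemble it closely. Striated muscle differs from other tissues in expressing Rpl3l, a paralog of Rpl3, the protein that reaches the peptidyl transferase centre of the large subunit.

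The tissue was heart of B6CASTF1/J males, a hybrid strain, at 14 days of age, and its RNA was sequenced as total RNA from 300 ng per library with ERCC spike-ins. There were 2 libraries, replicates 1 and 2 of 1 untreated group, so no conditions could be compared. The labels give both replicates the same donor label and mention 3 males; they do not say that the samples came from separate animals, so p-values measure the spread between these samples, which may be technical. Depth was 39334380 and 46391250 expected counts in replicates 1 and 2, of which members held 0.739% and 0.779%. Tables of 2 kinds were deposited for each library, one with the columns of RSEM and one with the columns of kallisto, and levels are given as TPM, a relative abundance of transcripts that scales reads by transcript length; the RSEM-style table is meant where none is named.

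The cardiomyocyte markers matched the labelled tissue: all 7 were at 1 TPM or more in both libraries, and their median was 3486 and 3260 TPM. Of 7 skeletal muscle markers, 1 reached 1 TPM in both libraries, and Myf6 and Myh2 had 0 counts in both. Of 11 T cell and thymus markers, all were below 1 TPM in replicate 1, where they summed to 1.77 TPM, while in replicate 2 they summed to 63.1 TPM, with Rag1 at 11.96 TPM against 0.02. Erythroid transcripts were abundant in both libraries, with the 5 markers found summing to 18882 and 18200 TPM. The part of these other cells in any ribosomal protein level was not tested, so every level below is given for both libraries. In bulk tissue, fewer cells of a type and less RNA per cell cannot be told apart.

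Rpl3l, the muscle paralog, was present at a level below that of Rpl3. Rpl3l was at 65.2 TPM in replicate 1 and 80.98 TPM in replicate 2 (73.1 ± 11.2, SD, n = 2). Rpl3 was at 127.1 and 120.0 TPM (124 ± 5.08, SD, n = 2). The levels of the 2 genes did not overlap, and Rpl3l supplied 33.9% and 40.3% of the pair's summed TPM. Within a library, the log2 ratio of Rpl3l to Rpl3 was -0.96 in replicate 1, with a 95% counting interval of -1.04 to -0.89, and -0.57 in replicate 2, with an interval of -0.63 to -0.50. These intervals are exact (Clopper-Pearson), cover counting error only and do not overlap, so the libraries differed by more than counting error. The mean was -0.76 ± 0.28 (SD, n = 2), with an adjusted p of 0.00433 by limma's moderated test with Benjamini-Hochberg adjustment over all genes. That test passed for 98.7% of all genes set against Rpl3, so passing it is not particular to Rpl3l. The call was lost when reads were not scaled by transcript length: the log2 ratio was then -0.36, with a limma adjusted p of 0.0562.

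The kallisto-style tables gave the same order with a larger distance. There Rpl3l was at 90.9 and 119.9 TPM and Rpl3 at 227.0 and 222.4 TPM. The log2 ratio was -1.32 and -0.89 in replicates 1 and 2, and the mean was -1.11 ± 0.30 (SD, n = 2), with an adjusted p of 0.00298 by limma's moderated test. The reads counted for Rpl3l were nearly equal in the tables, with 2490 and 3698 expected counts against 2354 and 3545 kallisto-style counts. Rpl3l has no assigned pseudogene copy, and none of the 100-base words of its transcripts occurred in another gene.

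Rpl3 does have such a copy. Rpl3-ps1, a processed pseudogene at mm10 chrX:13202571-13203780, was given 3100 and 3673 expected counts in replicates 1 and 2, against 3656 and 4135 for Rpl3 itself. The kallisto-style tables placed 2790 and 3265 counts on it. When the reads of all copies were added to Rpl3, a choice made after seeing the data, the log2 ratio of Rpl3l to Rpl3 was -1.85 and -1.48 in the RSEM-style tables and -2.08 and -1.67 in the kallisto-style tables. Rpl3l stayed below Rpl3 in all 4 of these ratios, and the distance was larger than with the reads of Rpl3 alone. Whether those reads came from Rpl3 or from the pseudogene was not tested.

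The coding sequences of Rpl3l and Rpl3 differ enough to be told apart by a read. Over the aligned coding sequences (1224 bases in Rpl3l and 1212 in Rpl3) 73.2% of columns were identical, and no 31-base word was shared. The first 240 coding bases, from GENCODE M21 transcripts on mm10, are printed with the 62 bases that differ in capitals; Rpl3 lies at chr15:80077791-80091868 on the minus strand and Rpl3l at chr17:24727820-24736143 on the plus strand.
Rpl3: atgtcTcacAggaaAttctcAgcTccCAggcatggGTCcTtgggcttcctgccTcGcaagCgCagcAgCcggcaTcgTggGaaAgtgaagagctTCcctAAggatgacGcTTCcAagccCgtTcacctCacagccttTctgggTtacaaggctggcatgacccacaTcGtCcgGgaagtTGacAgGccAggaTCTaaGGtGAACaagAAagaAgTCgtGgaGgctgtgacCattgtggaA
Rpl3l: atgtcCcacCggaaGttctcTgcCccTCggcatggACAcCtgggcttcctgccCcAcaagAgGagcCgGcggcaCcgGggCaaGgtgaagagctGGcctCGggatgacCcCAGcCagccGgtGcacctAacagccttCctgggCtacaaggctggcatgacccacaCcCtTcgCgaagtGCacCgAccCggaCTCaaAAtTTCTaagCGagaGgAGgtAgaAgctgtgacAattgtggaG

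Of the other paralogs, Rpl22l1, Rpl7l1 and Rps27l were below their main copies in both tables over all transcripts. Rpl36al was above or below Rpl36a depending on the table. Rpl22l1, the paralog of the RNA-binding large-subunit protein Rpl22, was at 43.16 and 43.28 TPM against 93.9 and 103.3 TPM for Rpl22. Its log2 ratio to Rpl22 was -1.19 ± 0.094 (SD, n = 2), with a limma adjusted p of 6.42e-05. Of the Rpl22l1 level, 12.7% and 6.98% lay in protein-coding transcripts, and most lay in Rpl22l1-209, a processed transcript of 473 bases at 34.9 and 37.8 TPM. Over protein-coding transcripts only, the RSEM-style log2 ratio of Rpl22l1 to Rpl22 was -4.53 ± 0.69 (SD, n = 2), with a limma adjusted p of 1.56e-07. By kallisto-style TPM, protein-coding transcripts held 39.4% of a mean of 80.6 TPM for Rpl22l1 and 15.7% of 144.0 TPM for Rpl22. Rpl22l1 was thus the higher there, so the coding-only order depended on the table. Rpl22l1-209 holds 96.5% of the 31-base words of the coding sequence, so this coding share does not measure how much mRNA can be translated. Rpl7l1, a paralog of Rpl7, was at 22.3 and 24.4 TPM against 349.4 and 362.1 TPM, a log2 ratio of -3.92 ± 0.053 (SD, n = 2). Rps27l, known as a p53-responsive paralog of Rps27, was at 71.9 and 81.0 TPM against 379.9 and 397.4 TPM, a log2 ratio of -2.35 ± 0.076 (SD, n = 2). These last ratios had limma adjusted p-values of 7.43e-06 and 3.00e-05. Between 96.5% and 99.5% of all genes passed the same test against these main copies, with 98.2% for Rpl22, 99.5% for Rpl7 and 99.5% for Rps27.

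Rpl36a and Rpl36al encode nearly the same large-subunit protein, Rpl36a from the X chromosome and Rpl36al from chromosome 12. In the RSEM-style tables Rpl36al was the higher, at 86.5 and 92.5 TPM against 51.0 and 56.1 TPM. The log2 ratio was 0.76 and 0.72, with a mean of 0.74 ± 0.030 (SD, n = 2) and a limma adjusted p of 0.000728. In the kallisto-style tables Rpl36al was the lower, at 106.7 and 115.6 TPM against 130.9 and 137.0 TPM, a log2 ratio of -0.27 ± 0.035 (SD, n = 2) with a limma adjusted p of 0.0438. The tables gave similar reads to Rpl36al, 1141 and 1459 expected counts against 1177 and 1527 kallisto-style counts. They differed on Rpl36a, with 620 and 814 expected counts against 1348 and 1749. Rpl36a-ps2, a processed pseudogene on chromosome 3, held 618 and 821 expected counts and 0 kallisto-style counts. With the reads of copies added to both genes, the RSEM-style log2 ratio was -0.22 and its limma adjusted p was 0.131.

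The pair itself is distinguishable: no 31-base word of the coding sequences is shared. Rpl36a lies at chrX:134585654-134588062 on the plus strand and Rpl36al at chr12:69182731-69184083 on the minus strand.

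Rps27 and Rps27rt show the opposite case, a pair of annotated protein-coding genes with the same coding sequence. All 255 coding bases were identical between Rps27 (chr3:90212522-90213651, minus strand) and Rps27rt (chr9:114982366-114982739, minus strand), and the sequence is printed once to show what a read would have to come from.
Rps27 and Rps27rt: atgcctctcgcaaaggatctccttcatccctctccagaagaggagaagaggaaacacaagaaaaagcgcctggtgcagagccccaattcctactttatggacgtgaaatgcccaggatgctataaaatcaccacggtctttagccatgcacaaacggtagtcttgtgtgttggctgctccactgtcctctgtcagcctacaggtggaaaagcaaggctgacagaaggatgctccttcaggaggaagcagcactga

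The RSEM-style tables gave Rps27rt 71.4 and 134.4 expected counts, or 8.49 and 13.33 TPM, a log2 ratio to Rps27 of -5.47 and -4.89. In the kallisto-style tables Rps27rt was listed at 0 in both libraries. Reads within the coding sequence cannot be told apart between these genes, so the level of Rps27rt is uncertain.

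Rpl10l and Rpl39l, paralogs best known from male germ cells, were at the floor of the data. Rpl10l had 0 counts in both libraries, and Rpl39l had 0 counts in replicate 1 and 1 in replicate 2, against 84.4 and 78.4 TPM for Rpl10 and 160.2 and 156.7 TPM for Rpl39. No fold is given for them. Testis germ cell markers were also near 0, with none of the 5 at 1 TPM in both libraries. Rps19bp1, which encodes a nucleolar protein that binds Rps19 and is not a ribosomal protein, was at 5.89 and 7.71 TPM.

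**Figure D1:**
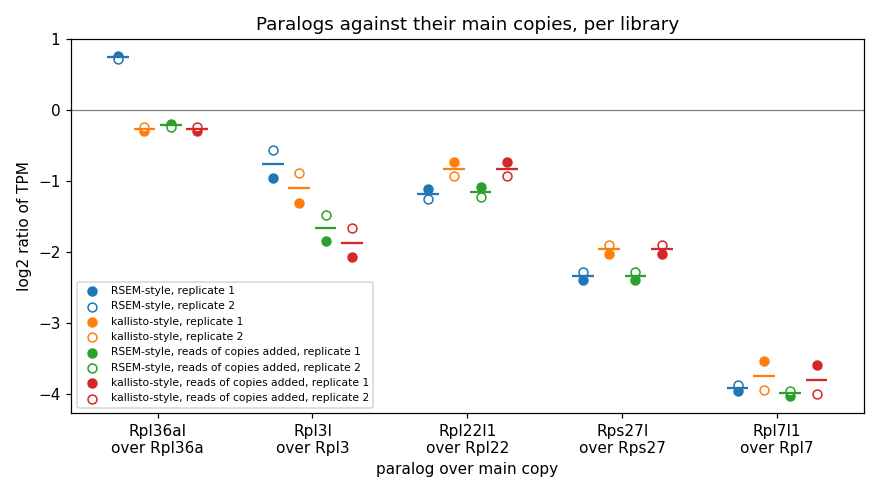
Log2 ratio of TPM of 5 paralogs over their main copies in each library (filled circles, replicate 1; open circles, replicate 2; lines, mean of 2), for the RSEM-style and kallisto-style tables with and without the reads of pseudogene copies. Rpl36al lies above 0 in the RSEM-style tables alone (0.74) and below 0 in the other settings, while Rpl3l lies below 0 throughout.

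All 77 core members were at 1 TPM or more in both libraries, and 66 were at 100 TPM or more in both. The core median was 215.0 TPM in replicate 1 and 229.0 TPM in replicate 2. Nuclear protein-coding genes at 1 TPM or more, 11408 in number, had medians of 9.72 and 9.94 TPM. The core members made up 4.06% and 4.23% of all TPM of nuclear protein-coding genes (4.14% ± 0.117, SD, n = 2).

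Core levels were not equal. The SD of log2 TPM over the 77 core members was 1.02 and 1.01 in the 2 libraries, against 1.83 and 1.82 over the 11408 protein-coding genes. Over protein-coding transcripts only, the SD over core members was 1.80 as the mean of the libraries. Highest and lowest core members were 49.8-fold and 45.6-fold apart in the RSEM-style tables and 17.36-fold and 16.95-fold apart in the kallisto-style tables. With the reads of pseudogene copies added, the distance was 8.76-fold and 10.05-fold in the RSEM-style and 12.2-fold and 13.1-fold in the kallisto-style tables. Within 2-fold of the core median in both libraries were 61 of the 77 in the RSEM-style tables without copies. By limma's moderated test of each gene against the core median of its library, 26 of 77 core members were above it, 28 were below it and 23 passed in neither direction. Over all genes, 1.69% passed above the core median and 97.5% below it. The reference is the median of these same 77 genes, so a near-even split above and below it was fixed in advance. The split is therefore not a result about the proportions of core members. The same test on the kallisto-style tables called 27 above and 20 below, against 1.40% and 97.8% of all genes; 20 core members were called above in both tables, 13 below in both, and Rpl10, Rpl36 and Rps20 were called in opposite directions.

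The highest core member was Rpl41, which encodes the smallest protein of the ribosome, at 747 and 794 TPM. Next came Rplp1, one of the acidic stalk proteins, at 602 and 617 TPM, and Rps29, a small zinc-binding protein, at 565.7 and 565.5 TPM. Their log2 ratios to the core median were 1.80, 1.46 and 1.35, with limma adjusted p-values of 2.93e-05, 7.19e-05 and 0.000106. These 3 were the core members that were both past the test and at least 2-fold above the median, as were 0.960% of all genes. In the kallisto-style tables Rpl41 was at 1330 and 1451 TPM, Rps29 at 704 and 652 TPM and Rplp1 at 463 and 502 TPM, and only the first 2 of them met the same rule there. Rps14, Rps27, Rplp2, Rps24 and Rpl7 were also among the 10 highest, at mean levels between 356 and 421 TPM. The 4 highest did not overlap with one another between libraries, but over the whole order the TPM ranges of neighbouring members overlapped in 57 of 76 neighbouring pairs. These ranges were not paired by library, so an overlap does not show that 2 neighbours were equal. Rplp2, for example, was above Rps24 in each library, at 365 and 388 against 352 and 367 TPM, although their ranges overlapped.

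At the other end 12 core members were past the test and at least 2-fold below the median, as were 96.2% of all genes. By the same rule 8 were below in the kallisto-style tables. With the reads of pseudogene copies added, 5 were below in the RSEM-style and 5 in the kallisto-style tables. Above the median, 5 and 2 then met the rule in these tables. Rpl5, which carries 5S rRNA into the ribosome together with Rpl11, was lowest at 15.0 and 17.4 TPM. Rpl27 was at 17.9 and 21.7 TPM, Rpl12, a protein at the base of the stalk, at 29.6 and 27.2 TPM, and Rpl27a at 37.2 and 42.4 TPM. Rpl21 was at 51.6 and 49.9 TPM and Rpl36a at 51.0 and 56.1 TPM. Rps23, a protein of the decoding centre, Rpl10, which joins the large subunit late in its assembly, Rpl37 and Rps12 made up the rest of the 10 lowest, at mean levels between 77.5 and 83.7 TPM. Each of these 10 was higher in the kallisto-style tables, where the core median was higher too, at 311 and 331 TPM. Above that median in both libraries were Rps23 at 422 and 379 TPM, Rpl10 at 373 and 410 TPM and Rpl37 at 331 and 342 TPM. Rpl27a, at 311 and 333 TPM, was at it in replicate 1 and just above it in replicate 2, and the rest were below it.

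**Figure D2:**
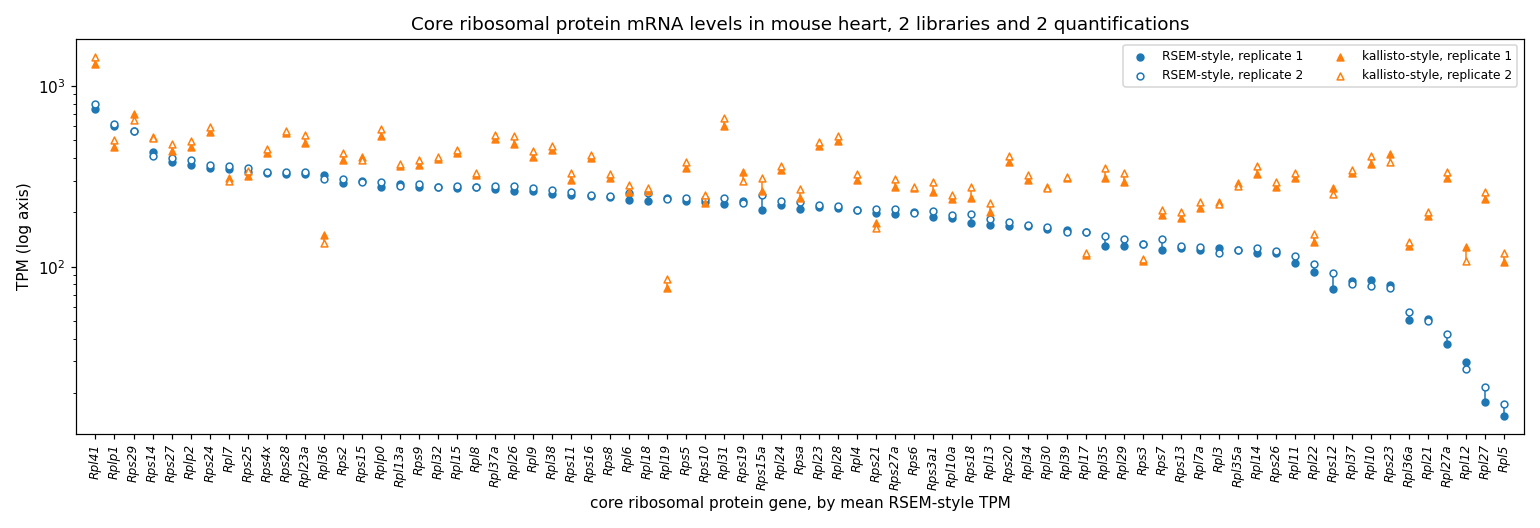
TPM (log axis) of the core members, with 2 of the 77 left out, in replicate 1 (filled) and replicate 2 (open) from the RSEM-style tables (circles) and the kallisto-style tables (triangles), ordered by mean RSEM-style TPM. The replicates lie close together for nearly every gene, whereas the tables part most for the lowest genes, such as Rpl27 at 17.9 and 21.7 against 237 and 258 TPM.

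The medians of the subunits lay close together. The large-subunit median was 208 and 212 TPM and the small-subunit median 231 and 239 TPM, a log2 ratio of -0.16 ± 0.018 (SD, n = 2) that was not tested. In the kallisto-style tables that log2 ratio was -0.039 and 0.0013, so the libraries differed in sign.

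Within the stalk, where Rplp0 anchors dimers of Rplp1 and Rplp2, the order depended on the table. Rplp1 was above Rplp0 in the RSEM-style tables, with log2 ratios of 1.12 and 1.07, and below it in the kallisto-style tables, with -0.19 and -0.20. Rplp0 was at 277.6 and 293.3 TPM by the former and 528.9 and 574.9 TPM by the latter. Rplp2 was at 365 and 388 TPM, with log2 ratios to Rplp0 of 0.40 and 0.40 in the RSEM-style tables and -0.20 and -0.20 in the kallisto-style tables. With the reads of pseudogene copies added to each gene, the log2 ratio of Rplp1 to Rplp0 was 0.70 and 0.64 in the RSEM-style and -0.58 and -0.59 in the kallisto-style tables. That of Rplp2 to Rplp0 was then -0.03 and -0.03 in the RSEM-style tables, where its sign turned, and -0.59 and -0.60 in the kallisto-style tables. For the 5S rRNA partners, Rpl5 was below Rpl11 by a log2 ratio of -2.81 and -2.71 in the RSEM-style tables and -1.54 and -1.47 in the kallisto-style tables. With the reads of pseudogene copies added, the log2 ratio of Rpl5 to Rpl11 was -0.54 and -0.48 in the RSEM-style tables and 0.034 and 0.089 in the kallisto-style tables. Rpsa, the laminin receptor homologue of the small subunit, was at 208.6 and 229.0 TPM, close to the core median (log2 ratio -0.02).

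On the X chromosome 4 core members are annotated: Rps4x at 329.6 and 335.2 TPM, Rpl39 at 160.2 and 156.7 TPM, Rpl10 at 84.4 and 78.4 TPM and Rpl36a at 51.0 and 56.1 TPM. Rps4x passed limma's test above the core median, and the other 3 passed below it. In the kallisto-style tables their levels were 428 and 449 TPM for Rps4x, 310 and 313 TPM for Rpl39, 373 and 410 TPM for Rpl10, and 131 and 137 TPM for Rpl36a.

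The 2 quantifications of the same libraries differed more than the 2 libraries did. Of the 84 members tested, 21 were at least 2-fold lower in the RSEM-style than in the kallisto-style tables and passed limma's test, and 3 were higher. Over all genes, 2.77% were called lower and 2.76% higher, against 25% and 3.57% of members. The median ratio of all genes was itself below 1, at log2 -0.24 and -0.26 in replicates 1 and 2; with ratios centred on it, 15 members were called lower, against 1.10% of all genes, and 3 higher, against 2.66%. The median over members was -0.61. Across the 77 core members, which share libraries and annotation, the mean log2 TPM of the tables had a Spearman correlation of 0.65, while the 2 libraries had one of 0.99 within either table.

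Rpl27 had the largest ratio, at log2 -3.64 ± 0.11 (SD, n = 2), with a limma adjusted p of 0.00392. Rpl27a followed at -3.01, Rpl5 at -2.79, Rps23 at -2.37, Rpl10 at -2.26 and Rpl12 at -2.05. In the other direction were Rpl19 at 1.56 (240.4 and 237.8 against 76.6 and 85.6 TPM), Rpl36 at 1.14 (323.7 and 305.8 against 149.3 and 135.7 TPM) and Rps27rt, whose ratio rests on the pseudocount because the kallisto-style tables list it at 0. Members with the next largest ratios upward were not past 2-fold: Rpl17 was at 0.40, Rplp1 at 0.34 and Rps3 at 0.30.

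**Figure D3:**
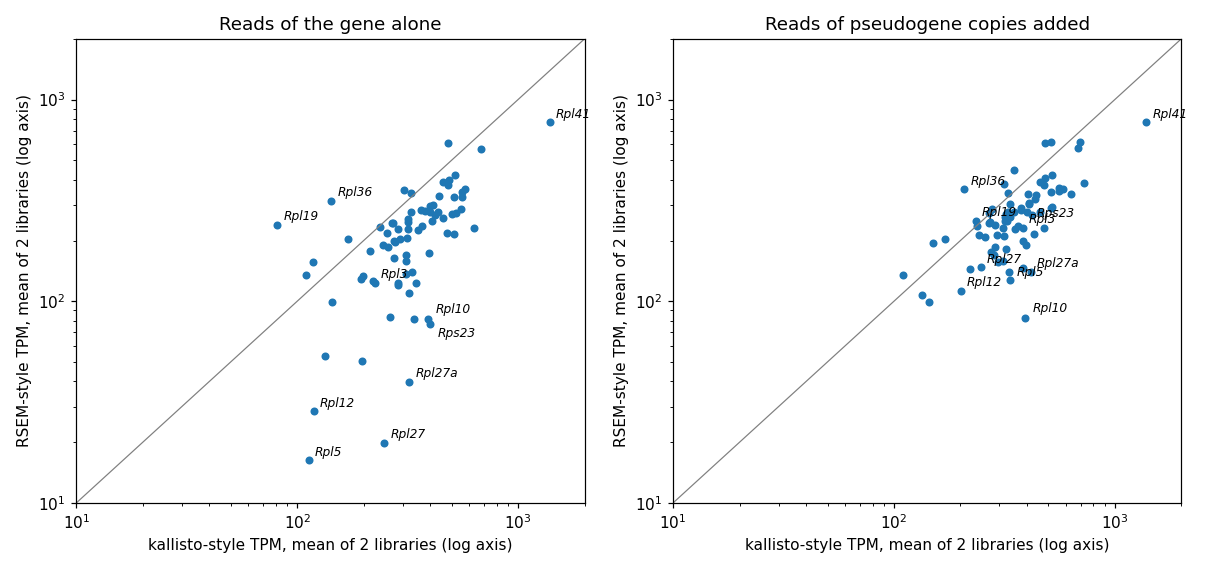
Mean TPM of the 77 core members in the kallisto-style (x) and RSEM-style (y) tables on log axes, with the reads of each gene alone (left) and with the reads of its pseudogene copies added (right); the line marks equal levels. Rpl5, Rpl27, Rpl27a, Rpl12 and Rps23 lie far below the line on the left and nearer to it on the right, while Rpl10 stays low in both.

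The tables differed in how many reads they placed on pseudogenes. Annotated pseudogenes that share at least 50 words of 31 bases with a member were assigned to it as copies, a rule set after seeing the data: there were 929, for 80 of the 86 members, with a median of 7 per core member. The RSEM-style tables placed 72293 of 363149 counts of members and copies on the copies in replicate 1 and 90321 of 451662 in replicate 2. The kallisto-style tables placed 33888 of 340172 and 41882 of 421205 counts there, or 9.96% and 9.94%. More reads lay on the copies than on the gene for 11 members in the RSEM-style tables (Rpl5, Rpl12, Rpl21, Rpl27, Rpl27a, Rpl28, Rpl36a, Rpl37, Rps2, Rps7 and Rps23) and for 2 in the kallisto-style tables (Rpl5 and Rpl19).

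Rpl27 shows the pattern most plainly. The RSEM-style tables gave the gene 308 and 455 expected counts and its copies 2168 and 2692. The kallisto-style tables gave the gene 2527 and 3190 counts and its copies 3.06 and 2. Summed over gene and copies, the log2 ratio of counts between the tables was -0.03, and that of TPM was -0.75. Rps23 was alike, with 998 and 1150 expected counts on the gene and 2821 and 3513 on copies, against 3966 and 4625 kallisto-style counts on the gene and 7.14 and 169 on copies. For Rpl5 both tables placed most reads on one transcribed pseudogene, Gm15500 (chr7:114705217-114706235): it held 5481 and 6985 expected counts and 4170 and 5315 kallisto-style counts, while Rpl5 itself held 788 and 1045 against 2086 and 2694. Rpl19 went the other way: Rpl19-ps11 on chromosome 8 held 196 and 246 expected counts and 1983 and 2237 kallisto-style counts.

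Some members, among them Rpl10 and Rpl36, did not follow this pattern. Copies of Rpl10 held 19.5 and 17.9 expected counts, and with copies added its count ratio between the tables stayed at log2 -1.62. For Rpl36, the count ratio was 2.72 and with copies added 2.36. Rps21, Rplp1 and Rps29 had log2 count ratios of 1.80, 1.55 and 1.30, and of 1.80, 1.55 and 1.32 with copies added. For Rpl19 the log2 count ratio fell from 2.22 to 0.75 with copies added, so a difference remained. With the reads of copies added for every member, 8 members were called lower and 1 higher (2.69% and 2.75% of all genes). The 8 were Rpl5, Rpl10, Rpl14, Rpl23, Rpl27a, Rpl35, Rps20 and Rps19bp1. Among them the log2 ratio of TPM between the tables was -1.25 both with and without copies for Rpl35, -1.39 with copies against -1.48 without for Rpl14, -1.05 against -1.14 for Rpl23 and -1.05 against -1.19 for Rps20. In counts, the log2 ratio with copies added was 0.002 for Rpl5 and -0.02 for Rpl27a, against -1.39 and -1.47 without. It was -0.13 for Rpl14, -0.10 for Rpl23 and 0.22 for Rps20, against -0.22, -0.19 and 0.09 without. For Rpl35 it was -0.54 with and without copies, and for Rps19bp1 it was 0.016. A call on TPM was therefore not always a difference in the reads placed. With copies added, the SD of the table ratio over 83 members (without Rps27rt) was 0.49 against 0.81, and the SD of log2 TPM over the core was 0.63 in the RSEM-style and 0.58 in the kallisto-style tables. The Spearman correlation between the tables over the 77 core members hardly changed, at 0.66 with copies against 0.65 without. The Pearson correlation was 0.68 against 0.59. Which of the gene and its copies the reads came from was not tested.

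**Figure D4:**
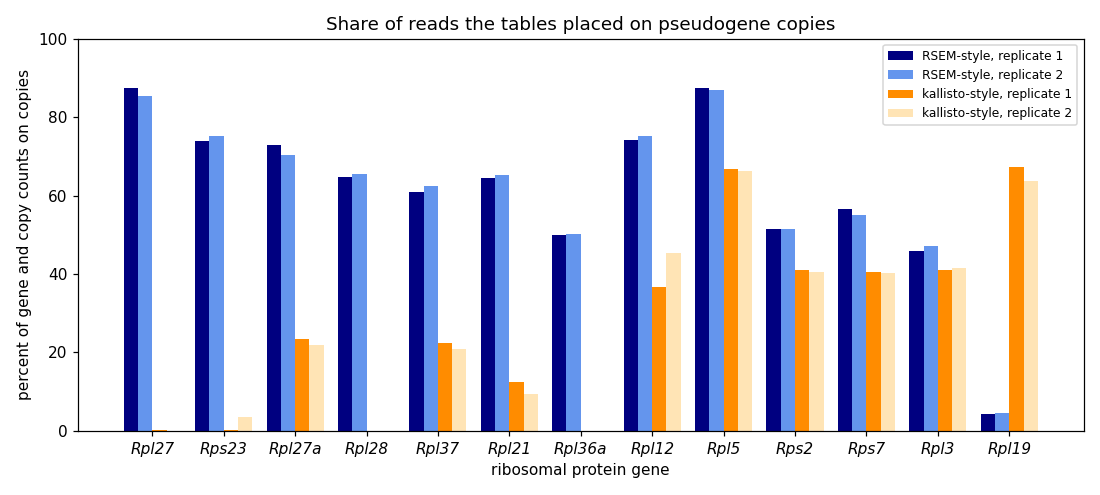
Percent of the counts of a gene and its pseudogene copies that each table placed on the copies, per library, for the 11 members with more RSEM-style reads on copies than on the gene, plus Rpl3 and Rpl19. The RSEM-style bars exceed the kallisto-style bars for each gene except Rpl19.

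The tables also differed in which transcripts of a gene took the reads. The median core member had 98.4% of its RSEM-style TPM and 87.7% of its kallisto-style TPM in transcripts annotated as protein-coding. Under 50% were 12 core members in the RSEM-style tables and 21 in the kallisto-style tables, with 8 in both. The 6 smallest shares in the RSEM-style tables were those of Rps16 (1.39%), Rps20 (2.14%), Rps26 (2.53%), Rpl35 (3.42%), Rpl37 (10.3%) and Rps18 (10.7%). The main coding transcript of a gene is here the one with the longest complete coding sequence, with kallisto-style TPM used only to break ties. It need not be the most abundant transcript. Rps16 had 163 and 168 TPM in the retained-intron transcript Rps16-203, which is 518 bases long against 1109 for the main coding transcript. Rps16-203 holds 88.8% of the 31-base words of the coding sequence. For Rps20 the retained-intron transcript Rps20-201 has 582 bases against 3706 for the main coding transcript and holds 99.4% of its coding words, and for Rps26 the share of coding words was 99.4%. Most of the coding sequence is thus present in the transcript that the annotation calls noncoding, so these shares do not measure how much mRNA can be translated. Rps27 had 99.7% of its TPM in coding transcripts by the RSEM-style and 0.22% by the kallisto-style tables, the widest gap among those named.

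**Figure D5:**
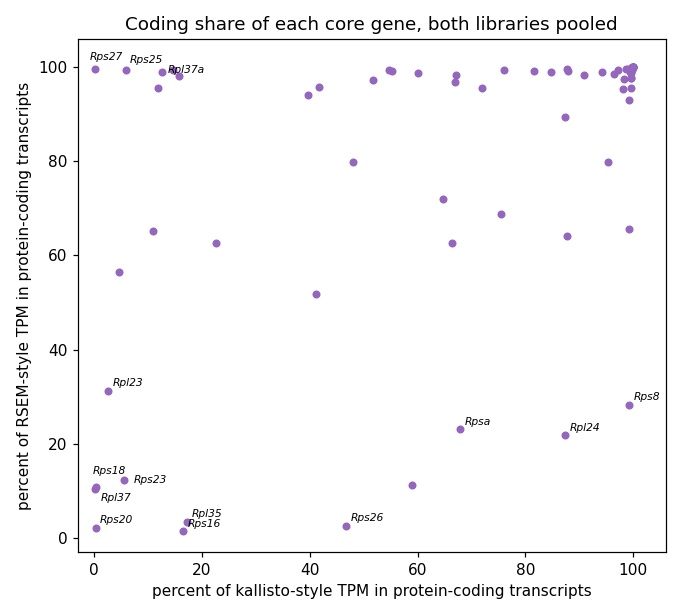
Percent of each core gene's TPM in protein-coding transcripts, kallisto-style (x) against RSEM-style (y), with both libraries pooled and each point 1 gene. Rps16, Rps20 and Rpl35 are low in both tables, while Rps27, Rps25 and Rpl37a are high in the RSEM-style tables and low in the kallisto-style tables.

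Between the libraries members moved little. With TMM-scaled totals, 2 of 84 members were more than 25% higher in replicate 2 and none was more than 25% higher in replicate 1, against 11.8% and 9.34% of all genes. The set of all genes was not matched to members for counts, so the smaller share is not shown to be particular to members. The small shifts leaned one way: 60 of the 84 members were higher in replicate 2, against 49.9% of all genes. The median log2 ratio of replicate 2 to 1 was 0.038 over members and -7.7e-05 over all genes. With 1 library on each side there is no test. The 2 members past 25% were Rps27rt, at a log2 ratio of replicate 2 to 1 of 0.63 (95% counting interval 0.21 to 1.07), and Rps19bp1, at 0.38 (0.054 to 0.70). Both were low in counts. Rpl3l came next at 0.29 (0.22 to 0.36), followed by Rpl27 at 0.28, Rps12 at 0.26 and Rpl27a at 0.22. These ratios use expected counts, and the kallisto-style levels did not all move alike. There Rpl3l was at 90.9 and 119.9 TPM in replicates 1 and 2, Rpl27 at 237 and 258 and Rpl27a at 311 and 333. Rps12 was lower in replicate 2 there, at 272 and 252 TPM. The most negative were Rpl10 at -0.11, Rpl3 at -0.10 (-0.17 to -0.038), Rpl36 at -0.10, Rps14 at -0.08, Rps23 at -0.07 and Rpl37 at -0.07. Rpl3l and Rpl3 thus had intervals on opposite sides of 0. The T cell and thymus markers, summing to 1.77 and 63.1 TPM, moved with the same contrast. The median log2 ratio of replicate 2 to 1 was -0.23 over 4 fibroblast markers, -0.15 over 5 endothelial markers, -0.06 over 7 cardiomyocyte markers and -0.06 over 5 erythroid markers. The part of any of these in the members' ratios was not tested.

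The start of the transcript was searched for the pyrimidine run of these mRNAs, defined after seeing the data as a C followed by at least 4 letters C or T that begins within the first 5 bases. It was found in the main coding transcript of 21 of 77 core members (27.3%). That transcript was chosen by coding length, so its start is not always the start of the most abundant transcript. Taking the longest coding transcript of each gene, the run was found in 20 of 77 core members (26.0%). Among 13436 other protein-coding genes that reached 10 counts in both libraries, 9.09% had the run. The match depends on how exactly the annotation places the start. The first 24 bases of the main coding transcript in GENCODE M21 are shown for 4 members that carry the run, in capitals, and for Rpl3 and Rpl3l, in which this pattern was not matched.
Rps24: CTCTTTTCCTCCTCTCCagctccg
Rpl32: CTTCCTTCTTCCTCggcgctgcct
Rps2: ttCCTCTTCTTTTTgtcactagca
Rplp1: gatCTTTTCCTCagctgccgccaa
Rpl3: agggggcggagccatcacttggct
Rpl3l: agctctgtcatttgacctctggtg

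Promoters of 57 core members were found in the RefSeq table for GRCm38.p6, as windows of 300 bases around the start. CCGGAA, the core of sites bound by ETS factors, was present on either strand in 29 of them (50.9%), against 15.2% of all 27025 promoters. That background holds every gene with a promoter, expressed in heart or not and core members included. It was not matched for expression or base content, so the difference is not shown to be particular to ribosomal protein genes. The other 4 motifs searched on either strand were less far from all promoters: AAGATGGC was in 7.02% against 2.88%, TATAAA in 8.77% against 14.2%, CATTCC in 8.77% against 14.6%, and CACGTG in 8.77% against 7.24%. A match is a description of the letters and not evidence of binding.

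Other genes of the ribosome's supply chain were set against the core median. Among ribosomal proteins with other symbols, Fau, which encodes a ubiquitin-like fusion with a small-subunit protein, was at 252 and 261 TPM, and Rack1, the scaffold of the small subunit, at 176 and 196 TPM; neither passed in either direction. Among 17 elongation factors and other mRNAs with a pyrimidine start, 4 passed above and 12 below; Tpt1 was at 1233 and 1215 TPM, Eef1a1 at 953 and 938, Eef2 at 491 and 478, and the muscle-type Eef1a2 at 370 and 419. Nap1l1, a histone chaperone, at 23.2 and 27.0 TPM and Eif3f, a subunit of initiation factor eIF3, at 37.3 and 38.0 TPM were the lowest of them.

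All 24 genes of RNA polymerase I and rRNA processing passed below the core median, with a list median of 8.65 and 10.78 TPM. Ncl, nucleolin, was highest at 55.1 and 51.3 TPM, followed by Polr1d, Ubtf and Nop10, and Taf1c was lowest at 1.55 and 1.73 TPM. All 12 chaperones and assembly factors passed below it too, with Aamp highest at 41.6 and 40.6 TPM and Tsr2, a chaperone of Rps26, lowest at 3.97 and 3.65 TPM. So did all 13 genes of translational control, among them Larp1, which binds the pyrimidine start, at 18.8 and 21.7 TPM, and Myc at 1.76 and 2.46 TPM. Since 97.5% of all genes passed below the core median, these counts are near the background.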

How the data were processed

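Per the file headers, the authors deposited RSEM-style tables with expected counts and TPM, and kallisto-style tables with estimated counts and TPM per transcript; per the readme the assembly was mm10 with GENCODE M21, and the versions of the tools were not given. Posterior mean TPM from the same deposited tables served as an alternative. The deposited percent of a gene's TPM in each transcript (per the file headers, the isoform percentage) was not used; coding shares were computed from TPM. Kallisto-style values were summed per gene. Symbols, types and coordinates came from GENCODE M21. The members, gene lists and markers were chosen with earlier results of these data known.

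Log2 ratios used TPM + 0.1 and were taken within a library. They were tested against 0 with limma 3.58.1 (intercept only, 2-sided moderated test, R 4.3.3), with Benjamini-Hochberg adjustment over the 15931 genes with at least 10 expected counts in each library and a threshold of 0.05; genes at 0 in both libraries for a measure, and the reference gene itself, were left out of a fit. A table difference also had to reach 2-fold. Libraries were compared with edgeR 4.0.16 TMM totals, at a difference of more than 25%, with exact 95% intervals. With 2 libraries the spread of a gene is estimated from 2 values and borrowed from other genes.

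The test was checked on simulated data in 2 settings, nearly all genes different and 200 genes different; the simulation was revised several times, its recovery of changed genes ranged from none to nearly all with the spread and number of changed genes assumed, and a member that missed the threshold is therefore not shown to be unchanged. Words of 31 and 100 bases, the copy rule, the start pattern, the motifs and the sequences shown were chosen after seeing the data.

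Genes named in the text were all paralogs and main copies, the stalk proteins and Rpsa, Rack1 and Fau, the 10 highest and 10 lowest core members, the 6 largest ratios in each direction between tables and between libraries, the 6 smallest coding shares, members on X, and the 4 highest and 2 lowest genes of each related list; others were named after their values were seen. Some items covered by this rule, and the alternative that adds ribosomal proteins with other symbols to the core, are not reported here.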

Additional observations from a re-analysis of the deposited data

How the results depend on the processing

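No paired analysis was possible because both libraries belong to 1 group. The log2 ratio of Rpl3l to Rpl3 (-0.76) ranged from -0.96 to -0.57 with 1 library left out, was -0.36 (limma adjusted p = 0.0562) without length scaling, and was -1.67 and -1.87 with the reads of pseudogene copies added in the RSEM-style and kallisto-style tables. Rpl36al over Rpl36a (0.74) reversed to -0.27 in the kallisto-style tables, to -0.22 with copies added in the RSEM-style tables and to -0.27 with copies added in the kallisto-style tables. Members lower in the RSEM-style tables numbered 8 with copies added; members higher (3) numbered 15 over protein-coding transcripts only and 1 with copies added. Members more than 25% higher in replicate 2 (2) numbered 4 by library totals and 0 by kallisto-style counts, where Rps27rt is listed at 0. The log2 ratio of subunit medians (-0.16) was -0.019 in the kallisto-style tables, -0.26 over protein-coding transcripts, -0.25 with copies added, 0.014 with copies added in the kallisto-style tables and -0.074 without length scaling. The core share (4.14%) was 4.796% in the kallisto-style tables. The SD of log2 core levels (1.02) was 0.69 in the kallisto-style tables, 1.80 over protein-coding transcripts, and 0.63 and 0.58 with copies added in the RSEM-style and kallisto-style tables. The cause was not tested for these. Alternatives with copies added or ratios centred were chosen after seeing the data. With 1 library left out, calls against the core median have no residual degrees of freedom and were not made.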
